A study of Drosophila melanogaster with 24 samples.

Results

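A set of 21 probe sets, 1 for each of 21 genes, stood highest at midday in the large PDF neurons of the adult Drosophila brain. They were chosen by a rule on the measured values from the 13647 probe sets (11982 genes) that carry 1 gene symbol and are not array controls. The rule used the 10 arrays of wild-type large PDF neurons: the mean at ZT6 had to reach 7 on the log2 scale and exceed the mean of each other time by at least 1, and both ZT6 values had to exceed every other value of that probe set in these neurons. ZT is zeitgeber time, in hours after lights on in a cycle of 12 h light and 12 h dark. The members are Tsp42En, Tsp42Eo, nac, Orc5, Prp40, CngA, St3, CstF64, Gpdh1, blow, SCCRO3, bnb, ksr, Trs33 and Mp, with CG1113, CG10973, CG32700, CG42674, CG1523 and CG8858 known by number.

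Large and small PDF neurons are clock neurons of the fly brain that release the neuropeptide PDF, and the large cells are known as light-responsive neurons that promote arousal. In such cells the transcription factors CLK and CYC drive per and tim, whose proteins then repress CLK and CYC, while vri and Pdp1 form a second loop that sets the rhythm of Clk. Genes under this loop reach their highest RNA at different times of day. The members fall outside the loop and belong to several cell functions: surface proteins, RNA processing, signalling, membrane traffic and metabolism.

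The study held 24 Affymetrix arrays of neurons labelled with GFP through cell-specific drivers that the labels do not name and sorted by hand after protease digestion of about 50 adult brains per sample. Large PDF neurons of yw flies, male and female, were taken at ZT0 (3 arrays), ZT6 (2), ZT12 (3) and ZT18 (2). Small PDF neurons of yw flies (2 arrays per time) and general neurons labelled ELAV, also yw (3 arrays per time), were taken at ZT0 and ZT12, again from both sexes. Large PDF neurons of male per01 flies, which carry a nonsense allele of the clock gene per, were taken at ZT0 and ZT12 (2 arrays per time), so that genotype and sex differed together. The replicates are biological per the labels, and no age beyond the adult stage is recorded in the labels. All values are the deposited log2 GCRMA values, on which 1 unit is a doubling, and values under 5 are treated here as background.

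PDF itself served to check the sort: Pdf lay at 15.5 or more on the 10 wild-type large PDF arrays, between 15.8 and 15.9 on the small PDF arrays and near 16.2 on the per01 arrays, and between 2.76 and 5.34 on the ELAV arrays. The per probe set lay between 8.11 and 9.64 on the per01 arrays. A nonsense allele can leave the RNA in place, so this level does not check the genotype. ZT0 replicate 2 of the large PDF neurons held the glial gene Gs2 at 9.53 and the haemocyte gene Hml at 6.73, and ZT18 replicate 2 held Gad1, a gene of GABA neurons, at 9.51. Without both arrays 15 of the 21 members still met the rule, and CG10973, CstF64, Gpdh1, bnb, ksr and Trs33 did not. None of the markers of other neurons, Kenyon cells, photoreceptors, glia, haemocytes, fat body, muscle or trachea that reached 7 at ZT6 had both ZT6 values above the other large PDF arrays. Among the markers under 7 at ZT6, 1 fat body marker did. The haemocyte gene Nplp2 and the yolk protein gene Yp1, a fat body marker, met the level and gap conditions of the rule and missed only this separation. Nplp2 read 7.39 and 8.43 at ZT6 and 3.73 to 7.97 on the other arrays, with a gap of 1.28, and Yp1 read 7.22 and 8.99 against 4.22 to 8.45, with a gap of 1.11. The summed log2 value of 7 haemocyte markers was 33.3 and 33.0 at ZT6 against 28.2 to 41.3 on the others, with 2 and 2 of the 7 at 5 or more against 1 to 4. The summed log2 value of 7 fat body markers was 31.9 and 40.3 on the ZT6 arrays against 25.2 to 37.3 on the others, with 3 and 4 of the 7 at 5 or more against 1 to 4. The summed log2 value of 10 markers of other neurons was 51.0 and 53.5 at ZT6 against 46.0 to 55.4 on the others. Their summed linear level was 3994 and 2868 at ZT6 and 1679 to 2047 at ZT0. It was 3964 to 7126 at ZT12, and 1520 and 2403 at ZT18. ZT18 replicate 2, picked by Gad1 alone, was thus not the highest array of this list. The part of these lists in the members' values was not tested. The per01 arrays had medians over all probe sets of 2.57 to 2.59, against 3.13 to 3.44 on all other arrays.

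The same rule was met by 22 probe sets with the peak moved to ZT0, by 58 at ZT12 and by 18 at ZT18. Of the probe sets whose mean reached the level at the time in question, this was 0.549% at ZT6, 0.589% at ZT0, 1.59% at ZT12 and 0.495% at ZT18. ZT6 and ZT18 had 2 arrays each and ZT0 and ZT12 had 3, so these shares rest on unequal numbers. All values of the wild-type large PDF arrays given here chose the members and are a description without a test.

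Just inside the level threshold lay Orc5 with a ZT6 mean of 7.10, CG1113 with 7.13 and Trs33 with 7.46. Just under it, with the other conditions met, lay CG7992 at 6.86, Dbp21E2 at 6.72 and a further gene at 6.71. By the gap, the ZT6 mean minus the highest mean of the other times, Mp (1.01), Trs33 (1.03) and ksr (1.09) were just inside, and Ald1 (0.996), kud (0.990) and sbm (0.980) just outside. A total of 43 probe sets failed the level condition alone, 134 the gap alone and 17 the separation of single arrays alone, so the edge of the set is thickly populated.

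The gap of the members ran from 1.01 to 2.43 with a median of 1.30. Their median level was 7.04 at ZT0, 8.37 at ZT6, 6.99 at ZT12 and 6.44 at ZT18. ZT12 had the next-highest mean in 12 members, ZT0 in 7 and ZT18 in 2, and the lowest mean was at ZT18 in 13, at ZT12 in 5 and at ZT0 in 3. The peak at ZT6 was set by the rule, and the trough was most often at ZT18. The share of all probe sets with their lowest mean at ZT18 was not counted. Of all probe sets that reached the level at ZT18, 823 of 3639 had their highest mean there. This was 1028 of 3737 at ZT0, 1211 of 3825 at ZT6 and 1258 of 3653 at ZT12. The ZT6 arrays differed from each other by a median of 0.41 and at most by 1.79, and replicate 2 was the higher in 9 of the 21.

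**Figure D1:**
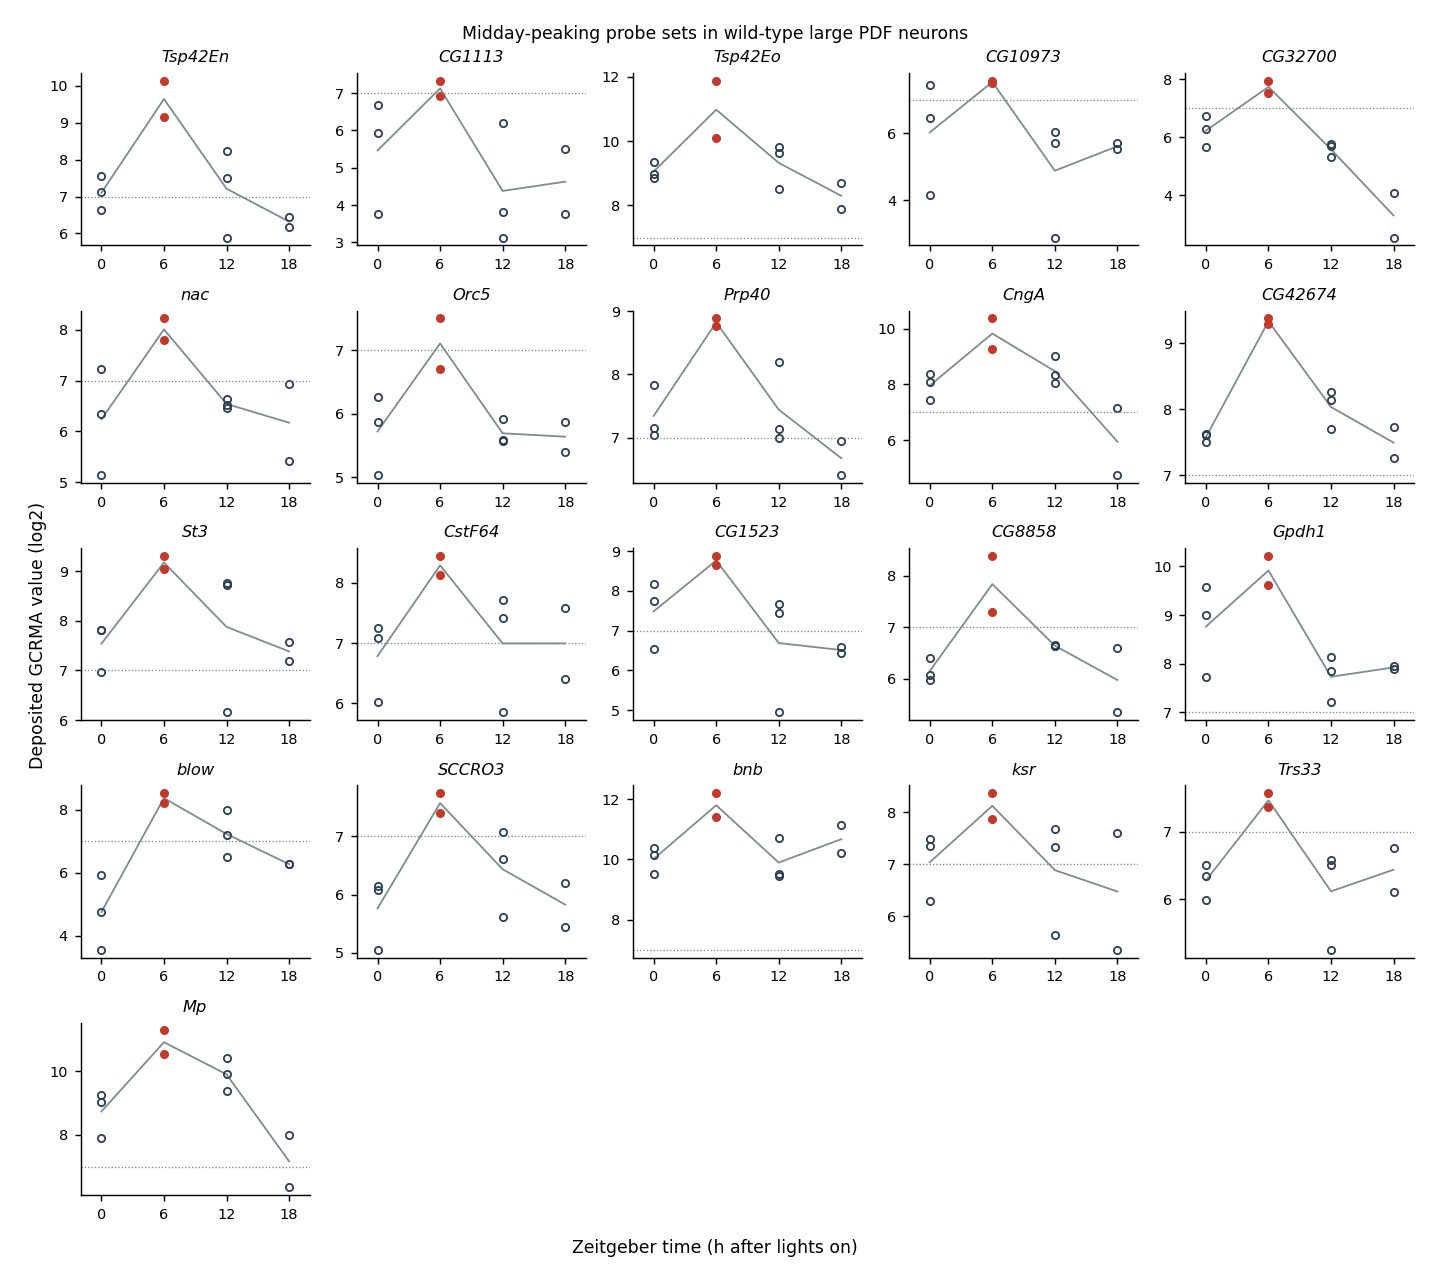
Log2 values of the 21 members (1 panel each) on the 10 wild-type large PDF arrays against zeitgeber time in hours; filled red points are the 2 ZT6 arrays, open points the other arrays, lines join the means and the dotted line marks the level of 7. The values chose the members, so every ZT6 point lies above all other points of its panel; the gap of the means runs from 1.01 (Mp) to 2.43 (Tsp42En).

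Tetraspanins of the Tsp42E gene cluster supplied the widest gap. Tetraspanins are proteins that cross the membrane 4 times and organise other proteins at the cell surface. Tsp42En read 10.13 and 9.15 at ZT6, 6.64, 7.11 and 7.56 at ZT0, 8.24, 5.89 and 7.51 at ZT12, and 6.19 and 6.45 at ZT18, a ZT6 mean 5.37-fold above that of ZT12. Tsp42Eo read 11.86 and 10.08 at ZT6, 9.34, 8.96 and 8.86 at ZT0, 9.62, 8.52 and 9.82 at ZT12, and 8.69 and 7.90 at ZT18. The lower ZT6 array exceeded the highest other array by 0.91 for Tsp42En and was less than 0.5 above it for Tsp42Eo, whose ZT6 replicates lay 1.79 apart.

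The 2 genes are near neighbours in the RefSeq annotation (Release 6 plus ISO1 MT), where Tsp42Eo overlaps Tsp42Ep. Tsp42Ep was under 5 on every array of the series. Of 17 annotated genes of the cluster 16 had a probe set, and 5 of these reached 7 at ZT6. Of the 5, Tsp42Ee, Tsp42El, Tsp42En and Tsp42Eo (4) had their highest mean at ZT6, although that of Tsp42Ee was only 0.007 above ZT0. Tsp42El read 8.16 and 6.13 at ZT6, on either side of its ZT0 values of 6.27, 6.72 and 7.18. Tsp42Ej, the remaining one, read 12.50 and 12.14 at ZT6 and 12.55, 12.59 and 12.77 at ZT0.

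Another member, Mp, encodes the fly collagen XV/XVIII, a matrix protein outside the cell. It read 11.29 and 10.55 at ZT6, 7.89, 9.27 and 9.04 at ZT0, 9.93, 10.42 and 9.37 at ZT12, and 7.98 and 6.35 at ZT18. The highest ZT12 array came within 0.13 of the lower ZT6 array. A second probe set of Mp was near background except for 1 ZT6 array at 6.19. For bnb (bangles and beads) the values were 12.20 and 11.39 at ZT6, 9.51, 10.39 and 10.14 at ZT0, 10.70, 9.45 and 9.53 at ZT12, and 11.14 and 10.20 at ZT18. Here the night value was the second highest, and every array was far above background.

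RNA processing was represented by CstF64 and Prp40. CstF64 is the RNA-binding subunit of the cleavage stimulation factor, which helps cut the mRNA 3′ end. It read 8.13 and 8.44 at ZT6, 7.09, 6.02 and 7.24 at ZT0, 7.42, 7.71 and 5.85 at ZT12, and 7.59 and 6.40 at ZT18. Prp40, a splicing factor of the U1 snRNP, read 8.88 and 8.76 at ZT6, 7.15, 7.83 and 7.05 at ZT0, 7.0, 8.19 and 7.13 at ZT12, and 6.94 and 6.41 at ZT18. The ZT6 arrays of Prp40 lay close together, and no other array came within 0.5 of them. CstF50, another subunit of the same factor, missed the rule only because its lower ZT6 value was 0.01 under 1 ZT0 array; it read 7.64 and 7.25 at ZT6 and 7.26, 5.47 and 6.12 at ZT0.

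Orc5 belongs to the origin recognition complex, which marks the sites where DNA replication starts, in cells that no longer divide. Its values were 6.71 and 7.50 at ZT6, 5.86, 6.26 and 5.03 at ZT0, 5.92, 5.57 and 5.58 at ZT12, and 5.40 and 5.87 at ZT18. They were low throughout, with 1 ZT6 array under the level threshold.

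Signalling members were CngA, ksr and blow. CngA, a subunit of a channel opened by cyclic nucleotides, read 10.37 and 9.28 at ZT6, 8.35, 7.43 and 8.08 at ZT0, 8.33, 9.02 and 8.05 at ZT12, and 7.13 and 4.74 at ZT18. The channel gene was thus lowest at night, and its ZT18 arrays differed by more than 2. The MAP kinase scaffold ksr read 7.88 and 8.37 at ZT6, 6.28, 7.35 and 7.48 at ZT0, 5.64, 7.33 and 7.68 at ZT12, and 7.59 and 5.35 at ZT18. It was the member least often kept when arrays were left out, in 6 of 10 cases. blow (blown fuse), known for its role in fusion of embryonic myoblasts, read 8.53 and 8.21 at ZT6, 3.55, 4.76 and 5.94 at ZT0, 7.19, 7.99 and 6.51 at ZT12, and 6.27 and 6.26 at ZT18. Its lowest time was ZT0, where 2 of 3 arrays were in the background range.

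For the secretory pathway and protein modification the members were nac, Trs33, St3 and SCCRO3. nac encodes the Golgi transporter of GDP-fucose, needed to add fucose to glycoproteins. It read 7.79 and 8.23 at ZT6, 6.35, 5.14 and 7.22 at ZT0, 6.65, 6.52 and 6.46 at ZT12, and 5.41 and 6.93 at ZT18. Trs33, a subunit of the TRAPP tethering complexes of the secretory pathway, read 7.57 and 7.36 at ZT6 and between 5.25 and 6.76 on the other 8 arrays. The sulfotransferase gene St3 read 9.31 and 9.04 at ZT6, 7.82, 7.82 and 6.97 at ZT0, 8.76, 6.15 and 8.71 at ZT12, and 7.57 and 7.20 at ZT18. The ZT12 arrays of St3 were split, with 2 near the ZT6 values and 1 far below. SCCRO3, whose relatives promote the attachment of NEDD8 to cullins, read 7.40 and 7.74 at ZT6 and between 5.05 and 7.07 elsewhere.

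Gpdh1, the cytosolic glycerol-3-phosphate dehydrogenase that links glycolysis to lipid synthesis, was the metabolic member. Its selected probe set read 9.61 and 10.22 at ZT6, 9.58, 7.72 and 9.0 at ZT0, 8.13, 7.85 and 7.21 at ZT12, and 7.95 and 7.90 at ZT18. The lower ZT6 array was only 0.04 above the highest ZT0 array, the narrowest separation in the set. Without ZT0 replicate 2, the array with the Gs2 signal, it no longer met the rule. The other 3 Gpdh1 probe sets had their highest mean at ZT0, with the ZT6 mean at a log2 difference of -0.29, -0.42 and -1.73 from it, so the midday peak belongs to 1 probe set of the gene and not to the gene as a whole.

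Of the members known by number, CG42674 had the most even values. It read 9.29 and 9.38 at ZT6, 7.60, 7.62 and 7.50 at ZT0, 8.14, 8.25 and 7.70 at ZT12, and 7.73 and 7.25 at ZT18, a ZT6 mean 1.30 above that of ZT12. Both other probe sets of CG42674 also had their highest mean at ZT6, by 0.49 and 0.70. In the more abundant of these the ZT6 arrays, at 11.40 and 11.37, again lay above all other large PDF arrays. CG32700 read 7.53 and 7.94 at ZT6, 6.72, 6.27 and 5.66 at ZT0, 5.75, 5.69 and 5.30 at ZT12, and 2.53 and 4.05 at ZT18, and was in the background range at night.

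CG1113 read 7.33 and 6.93 at ZT6, 3.77, 6.69 and 5.93 at ZT0, 3.13, 3.80 and 6.20 at ZT12, and 3.75 and 5.50 at ZT18, with 4 arrays under 5. CG10973 read 7.57 and 7.51 at ZT6, 6.46, 4.16 and 7.46 at ZT0, 2.87, 5.71 and 6.05 at ZT12, and 5.53 and 5.70 at ZT18. Both had wide spreads at the other times. CG1523 read 8.88 and 8.64 at ZT6 and between 4.94 and 8.16 elsewhere, and CG8858 read 7.28 and 8.39 at ZT6 and between 5.35 and 6.66 elsewhere.

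Among the 5 member genes with further probe sets, 4 of the 8 further sets had their highest mean at ZT6: the 2 of CG42674, that of St3 by 0.09, and that of Mp through a single array. The members lie on chromosome arms 2R (7), 3R (6), 2L (3), 3L (3) and X (2). The labels name no genome build for the array, so no coordinates are printed.

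The 8 core clock genes included no member and 1 gene with its highest mean at ZT6, and their median gap at ZT6 was -1.49, against -0.21 for all 3825 probe sets that reached the level at ZT6. vri read 7.97 and 8.43 at ZT6 against a range of 6.20 to 14.45 over all large PDF arrays, and Pdp1 read 9.75 and 10.05 against 9.75 to 12.96. Clk, with a ZT6 mean of 9.49, ranged from 4.35 to 10.34. The loop genes per, tim and cwo were likewise not highest at midday.

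Of the 29 functional lists examined, excluding those of markers of other cells, 3 held a member: CngA among 17 channel genes that reached the level, CstF64 among 20 genes of mRNA processing and Gpdh1 among 26 metabolic genes. The median gap of these lists was -0.16, -0.25 and -0.31. Cytosolic ribosomal protein genes had their highest mean at ZT6 in 7 of 11 and proteasome genes in 13 of 26. This was 1211 of 3825 (31.7%) for all probe sets at that level. The median gap was 0.018 for the ribosomal protein genes and 0.001 for the proteasome genes, against -0.21 for all probe sets at that level. In both lists the ZT6 mean was thus typically level with the highest mean of the other times, and no gene of either list was a member.

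Genes that work with the members were then listed, after the members were known: 121 were measured and 67 reached the level at ZT6. Of these 19 (28.4%) had their highest mean at ZT6. Of 7 other cleavage and polyadenylation factors 4 did, including CstF50 with a gap of 1.16 and Cpsf73 with a gap of 0.88. Cpsf73, the endonuclease of that reaction, read 8.07 and 7.84 at ZT6 and between 6.10 and 7.67 elsewhere, while su(f), the subunit that holds CstF64 and CstF50 together, had ZT6 values of 6.91 and 6.31 below its highest time. SCCRO4, a relative of SCCRO3, had a gap of 0.46, with both ZT6 arrays (10.81 and 10.61) above the others. These counts rest on 1 probe set for each gene. On that basis none of the 9 Ras and MAP kinase genes beside ksr was highest at ZT6. The same held for the 9 glycolysis genes beside Gpdh1 and for the sulfotransferase genes beside St3. Of the 10 splicing factors beside Prp40, 2 were highest at ZT6. The probe set of the metabolic gene Ald1 named above, with a gap of 0.996, was highest at ZT6. It was not among the probe sets counted for glycolysis, so other probe sets of these genes can differ.

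Levels were then set side by side over all 10 groups. The wild-type large PDF values among them chose the members, with ZT6 selected to be high, so the following counts are a description only. Large PDF at ZT6 had the highest of the 10 group means in 15 members, small PDF at ZT0 in 4 (CG10973, Gpdh1, blow and SCCRO3) and ELAV in 2 (CG32700 and Mp). In 8 members the mean of the ELAV neurons lay above every large PDF mean other than that at ZT6.

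The 14 arrays that the rule did not use were tested with limma (moderated test, Benjamini-Hochberg adjustment over 7685 probe sets that reached 5 on at least 2 of them). All 21 members passed that filter. In small PDF neurons 7 members were higher than in ELAV neurons at an adjusted p under 0.05, where 14.8% of all probe sets were higher, and 4 were lower, where 15.2% were lower. The median difference was 0.68 over the members and 0.02 over all probe sets. The members had to reach 7 in wild-type large PDF neurons, which the 7685 probe sets did not. These shares, and those for per01 neurons below, are therefore not matched for level. In bulk samples of sorted cells a lower number of cells of a type and less RNA per cell cannot be told apart.

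bnb was the farthest above ELAV. It read 10.89 and 10.77 at ZT0 and 9.76 and 12.00 at ZT12 in small PDF neurons, and 3.35, 3.56, 3.86, 3.65, 3.74 and 9.18 on the ELAV arrays, where ZT12 replicate 3 stood apart. No small PDF array overlapped the ELAV range, and the difference was 6.30 ± 1.11 (SE, adjusted p = 0.00134 by limma). blow was higher by 2.48 ± 0.58 (adjusted p = 0.00777 by limma), at 7.32 to 9.72 against 4.84 to 7.80. SCCRO3 was higher by 1.47 ± 0.32 (adjusted p = 0.00467 by limma), at 6.82 to 8.05 against 5.42 to 6.31, with no overlap.

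CG42674 was 1.42 higher, CngA 1.55, CG8858 1.43 and Gpdh1 1.08, and in these the ranges of the groups overlapped. Both other probe sets of CG42674 were also higher, by 1.78 and 4.16. Those of Gpdh1 disagreed: 2 of its other 3 probe sets were lower in small PDF neurons than in ELAV neurons, by a log2 difference of -1.09 and -1.15, so no direction can be given for the gene. Without small PDF ZT0 replicate 2 the calls of CngA, CG8858, Gpdh1, Trs33 and Tsp42En were lost (adjusted p = 0.0587 to 0.0728 by limma).

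Mp was lower in small PDF neurons, at 9.72, 10.08, 8.99 and 8.39 against 11.18 to 12.13 in ELAV neurons, a difference of -2.36 ± 0.34 (SE). CG32700 was lower by the same size (-2.36 ± 0.32), at 6.72 to 8.95 against 9.56 to 10.78. Neither gene's groups overlapped. Tsp42En (-2.66) and Trs33 (-1.51) were also lower, with overlapping ranges: Tsp42En read 5.21, 2.98, 6.72 and 5.52 in small PDF neurons and 5.83 to 9.08 in ELAV neurons. The neighbouring Tsp42Eo was not called, reading 5.37, 2.36, 8.02 and 3.60 against 2.44 to 3.41.

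Large PDF neurons of per01 flies gave arrays of the same labelled cell kind outside the rule. Against ELAV neurons 3 members were higher (4.37% of all probe sets) and 6 were lower (40% of all probe sets). Most of the called probe sets were lower on the deposited scale (336 higher and 3077 lower), and the median difference over all probe sets was -0.74. After quantile normalization 1073 were higher and 969 lower, and after median centring 835 and 1323. Cell kind, genotype and sex differ together in this comparison and cannot be told apart.

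Tsp42Eo was the clearest of the higher members. It read 7.01 and 10.04 at ZT0 and 4.74 and 8.80 at ZT12 in per01 large PDF neurons, and 2.44 to 3.41 on the ELAV arrays. The difference was 4.76 ± 1.01 (SE, adjusted p = 0.00298 by limma), and with background values set to 5 the level was at least 6.55-fold higher (3.39 to 12.6 when 1 array was left out). bnb was higher by 3.64 ± 1.11, at 6.75, 9.27, 6.43 and 10.33 against 3.35 to 9.18, where the upper value is again the single ELAV array. Its call was lost without ZT0 replicate 2 or ZT12 replicate 2 of the per01 neurons (adjusted p = 0.0854 and 0.0979 by limma).

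St3 read 6.08 and 6.54 at ZT0 and 6.62 and 9.38 at ZT12 in per01 large PDF neurons against 3.50 to 5.90 in ELAV neurons, a difference of 2.47 ± 0.63 without overlap. Its other probe set was lower in per01 large PDF neurons, by a log2 difference of -1.25 (adjusted p = 0.00378 by limma), so the probe sets of St3 disagree. Tsp42Eo, bnb and St3 were higher under each of the 3 scalings.

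CG32700 was the lowest relative to ELAV neurons, at 4.16, 3.40, 4.44 and 4.49 on the per01 arrays, all in the background range, against 9.56 to 10.78. On the deposited scale, with background values set to 5, it was at least 36.5-fold lower (33.9 to 41.2 when 1 array was left out). Its difference was -6.07 on that scale, -4.93 after quantile normalization and -5.48 after median centring, so the fold depends on the scaling. Mp was lower by a log2 difference of -2.06 ± 0.34, at 8.70 to 10.18 against 11.18 to 12.13. These 2 were lower under each of the 3 scalings. Tsp42En (-2.39), Trs33 (-1.23), CG1523 (-1.11) and CstF64 (-0.82) were lower on the deposited scale only: none was called after quantile normalization or median centring, and CstF64 then had a value of 0.18 (quantile) or -0.23 (median centring). CG8858, with a difference of 1.12, was not called on the deposited scale (adjusted p = 0.0598 by limma) and was called under both other scalings (2.14 and 1.71), and SCCRO3 was called after quantile normalization only (1.09). On the deposited scale the selected set of Gpdh1 was not called (-0.11), but its other 3 probe sets were lower (-2.06, -1.83 and -1.15). The selected set of CG42674 was not called either (-0.04). Of its other sets 1 was higher (1.56), and the remaining set (-0.48) was not called.

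**Figure D2:**
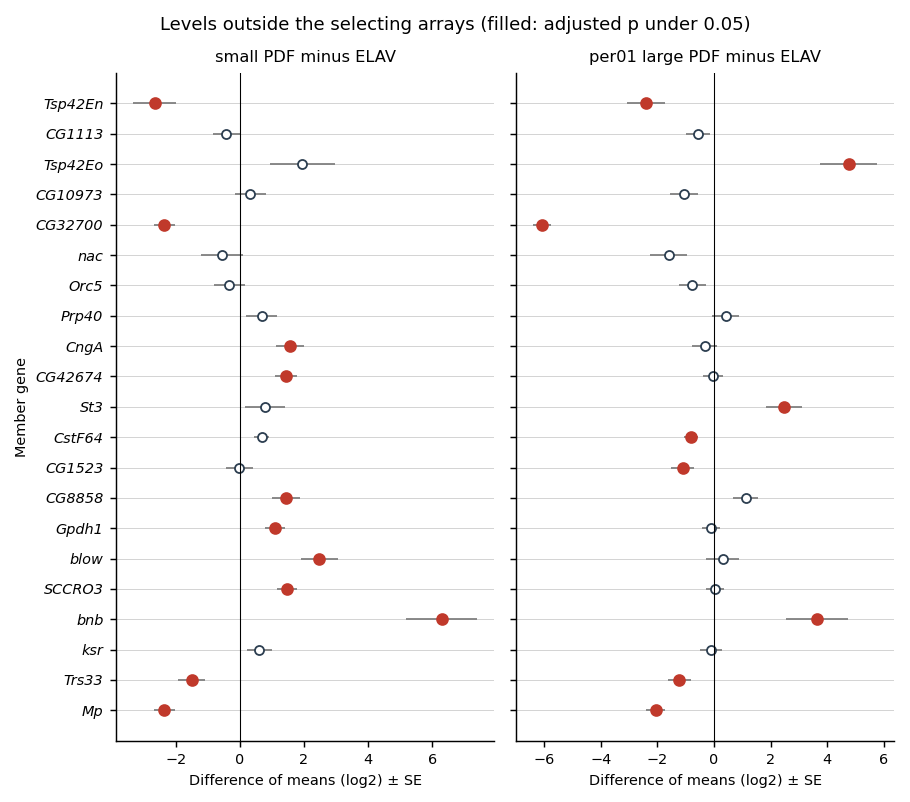
Differences (log2, with SE bars) of small PDF neurons (left) and per01 large PDF neurons (right) from ELAV neurons, averaged over ZT0 and ZT12, for the 21 members; filled points passed an adjusted p under 0.05. bnb lies far to the right in small PDF neurons (6.30) and CG32700 far to the left in per01 large PDF neurons (-6.07).

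Tsp42En and Tsp42Eo, selected for the same midday peak, stood at unlike levels in the other neurons. Tsp42En was at 5.83 to 9.08 in ELAV neurons, was lower in small PDF neurons, and was lower in per01 large PDF neurons on the deposited scale only (adjusted p = 0.124 after quantile normalization and 0.0695 after median centring, by limma). Tsp42Eo was in the background range in ELAV neurons and up to 10.04 in per01 large PDF neurons. The wild-type large PDF arrays outside ZT6 held Tsp42Eo at 7.90 to 9.82.

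Whether the members changed between ZT0 and ZT12 in other cells could be tested, although no other kind was sampled at ZT6. In small PDF neurons 1 of 21 members was called, where 3.29% of all probe sets were called. This was Gpdh1, which read 11.34 and 11.56 at ZT0 and 6.76 and 7.54 at ZT12. It fell by 4.30 ± 0.48 on the log2 scale (adjusted p = 0.000662 by limma). All 3 other Gpdh1 probe sets fell too, by a log2 difference of -2.61, -3.70 and -4.23. In wild-type large PDF neurons the ZT6 mean of the selected set was 9.92, between the small PDF values of ZT0 and ZT12.

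CG42674 read 9.24 and 9.25 at ZT0 and 7.74 and 6.47 at ZT12 in small PDF neurons, a difference of -2.15 ± 0.53 that narrowly missed the threshold (adjusted p = 0.0512 by limma). Its other probe sets had differences of -1.73 and -1.69 (adjusted p = 0.104 and 0.156 by limma). CG32700 (-1.57), blow (-1.58), CG10973 (-1.36), CG1113 (-1.34), Mp (-1.21) and SCCRO3 (-0.64) had both ZT0 values above both ZT12 values without being called. With Gpdh1 and CG42674 this made 8 of 21 members, where 21.8% of all probe sets had both ZT0 values higher. Only Tsp42En had both ZT12 values above both ZT0 values (2.03, adjusted p = 0.424 by limma), as did 18.7% of all probe sets.

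In ELAV neurons 0 of 21 members and 0% of all probe sets were called by limma, with 348 probe sets but 0 members at an unadjusted p under 0.05. Among the alternatives run, the count over all probe sets reached 5 at most. In per01 large PDF neurons 0 members and 0% of all probe sets were called, with 358 probe sets and 2 members at an unadjusted p under 0.05, and at most 3 probe sets under any alternative. The 2 members were Gpdh1, at 7.21 and 7.32 at ZT0 and 8.50 and 9.38 at ZT12 (1.67), and CG42674, at 5.56 and 6.36 and then 6.94 and 8.0 (1.51). Both had the opposite sign to their difference in small PDF neurons. The other probe sets of CG42674 had smaller differences in per01 large PDF neurons, of 0.27 and 0.85. Those of Gpdh1 had 1.70, 2.30 and 0.93, and none of these other sets was called. A positive difference was seen in 15 of 21 members in per01 large PDF neurons, where 55.6% of all probe sets were positive, with a median of 0.61 against 0.05.

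**Figure D3:**
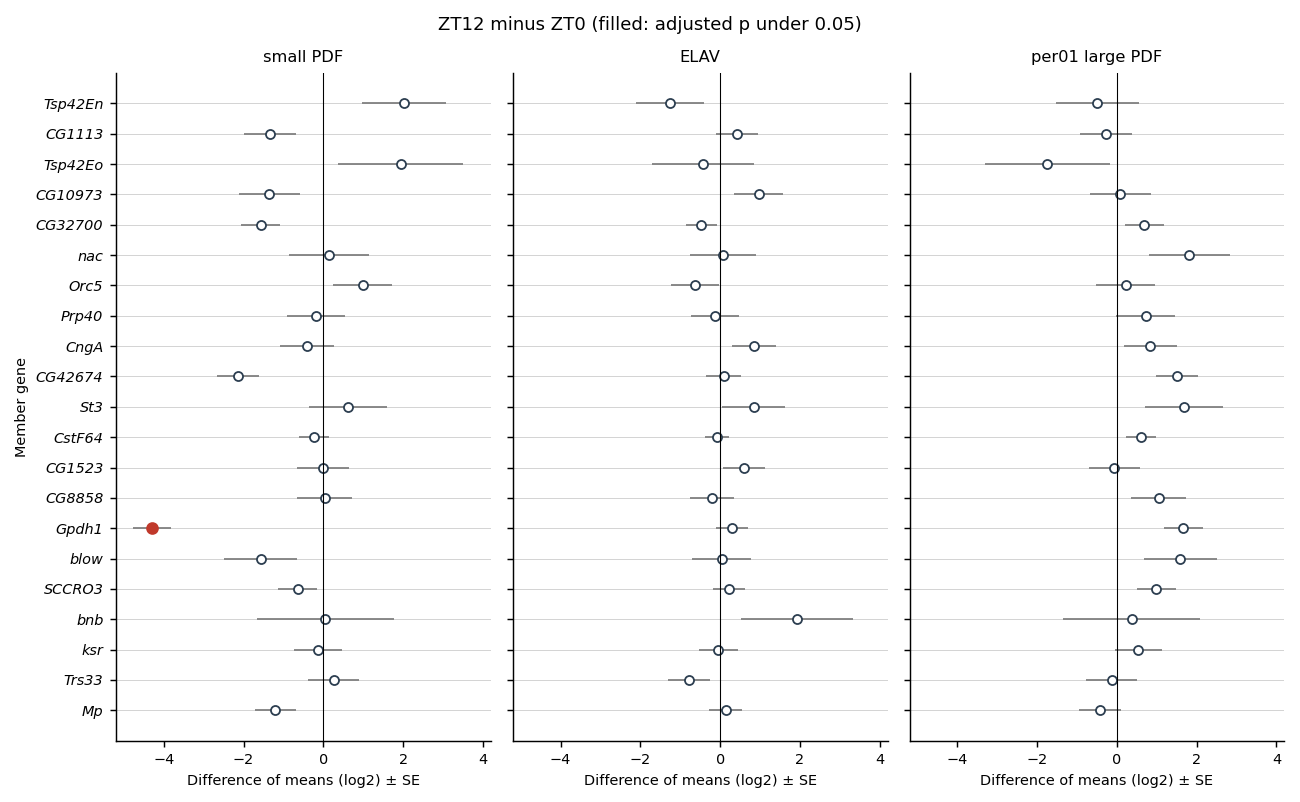
ZT12 minus ZT0 (log2, with SE bars) of the 21 members in small PDF, ELAV and per01 large PDF neurons; filled points passed an adjusted p under 0.05. Gpdh1 in small PDF neurons (-4.30) is the only filled point.

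The differences between these time changes were tested directly. Between small PDF and ELAV neurons 0.989% of all probe sets and 1 member were called: Gpdh1, whose change differed by -4.60 ± 0.62 (adjusted p = 0.00574 by limma). Between small PDF and per01 large PDF neurons 0.859% of all probe sets and 2 members were called, Gpdh1 with -5.97 ± 0.68 (adjusted p = 0.00227 by limma) and CG42674 with -3.66 ± 0.75 (adjusted p = 0.0487 by limma). Between per01 large PDF and ELAV neurons 0% of all probe sets and 0 members were called by limma, and 1 member had an unadjusted p under 0.05. The call of CG42674 was lost when any of 7 of the 8 arrays involved was left out, and that of Gpdh1 was not lost when any 1 array was left out.

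**Figure D4:**
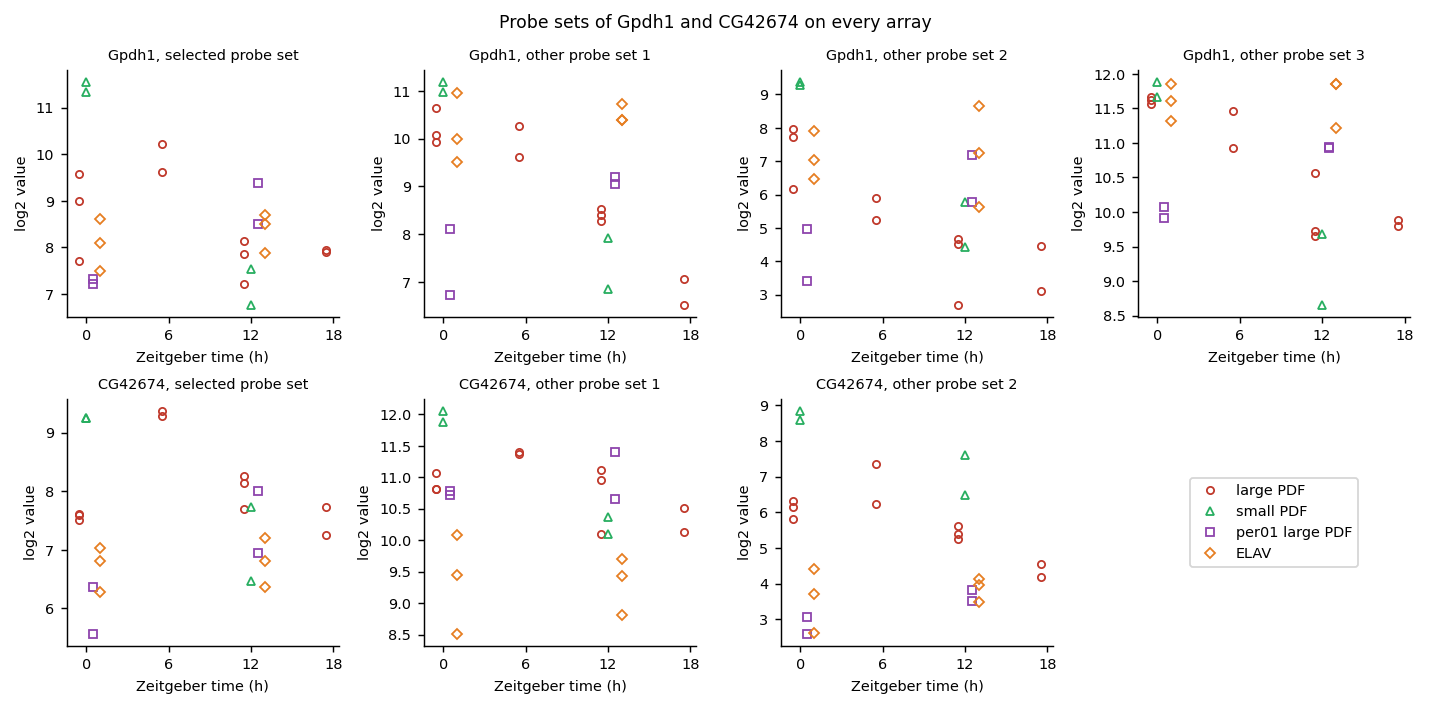
Log2 values of the 4 Gpdh1 probe sets (top) and the 3 CG42674 probe sets (bottom) on every array against zeitgeber time in hours, with symbols by cell kind (slightly offset for clarity). Small PDF values are high at ZT0 and low at ZT12 in every panel, whereas a large PDF maximum at ZT6 appears in the selected Gpdh1 set and in all 3 sets of CG42674.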

How the data were processed

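The authors deposited 1 log2 value per probe set and array, for which the submitters' processing notes name GCRMA and R 2.6. GCRMA corrects background by probe sequence and makes 1 value of several probes. No source used here says whether all arrays were normalized jointly, and the low medians of the per01 arrays bear on every level set against them. Of 18952 probe sets, 183 controls were left out; 13647 carried 1 symbol in the platform annotation, 402 several and 4720 none. The members and lists were chosen with earlier results of these data known. The 14 arrays outside the rule were fitted with limma 3.58.1 (R 4.3.3), 1 mean per group, with 8 residual and 3.73 prior degrees of freedom. Comparisons with ELAV weight ZT0 and ZT12 equally. Named were all members by size of gap or as called, list members, and the 3 probe sets nearest each threshold; CstF50, Cpsf73, su(f), SCCRO4, Tsp42Ee, Tsp42Ej, Tsp42El, Tsp42Ep, Nplp2 and Yp1 were chosen after their values were seen. Probe sets of a gene were kept apart for the members and the tests. For cell markers, clock genes, list gaps and the genes that work with members, 1 probe set per gene was used. It was the one with the highest mean over all arrays. No 2 arrays were identical. Precision is limited by the number of arrays. The code was tested on simulated data for the time change in small PDF neurons. In that fit the variance prior was estimated over all non-control probe sets, not only over the 7685 that passed the filter. Its shares of calls therefore come from a fit that is not the same as the main one. A log2 change of 2 was called in 29% of 100 changed probe sets, and a change of 3 in 67% of 100, with 10 false calls. A missing call therefore does not show that a change was absent. Alternatives covered the thresholds, filter, scaling, background floor, arrays in the fit, variance model, pairing and leaving out each array.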

Additional observations from a re-analysis of the deposited data

Results flagged for a closer look

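The time change of Gpdh1 from ZT0 to ZT12 differed between small PDF and ELAV neurons by -4.599 on the log2 scale, since the selected probe set fell in small PDF neurons while its ELAV means were 8.07 and 8.37. It differed between small PDF and per01 large PDF neurons by -5.966. Under the alternatives the adjusted p by limma stayed between 0.00122 and 0.0324 for the first and between 0.000489 and 0.0173 for the second difference.

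The time change of CG42674 differed between small PDF and per01 large PDF neurons by -3.655. The adjusted p by limma was 0.0487 and ran from 0.00691 to 0.184 under the alternatives, with 5 of 15 below the threshold. In each case the interaction term itself passed the test. Groups here hold 2 or 3 arrays, so no test for outlying arrays was made.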

How the results depend on the processing

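The number of members depended on the thresholds. It was 36 with a level of 6, 92 with a gap of 0.5, 5 with a gap of 1.5 and 38 without the separation of single arrays. Leaving out 1 large PDF array gave 19 to 122, the highest without ZT6 replicate 1 (122, of which 14 were among the 21) and then without ZT6 replicate 2 (90, of which 16 were). Tsp42En, CG32700, nac, Prp40 and CG42674 were kept whichever array was left out. CG1113, Orc5 and Trs33 no longer met the rule after quantile normalization, and Orc5 did not after median centring. Leaving out ZT0 replicate 2 and ZT18 replicate 2 together, an alternative chosen after seeing the data, gave a count within 1.5 times the main one. Without a filter the time change had 2 calls in ELAV and 3 in per01 neurons, and per01 against ELAV had 7138 of more probe sets tested. That comparison had 2042 calls after quantile normalization and 2158 after median centring. CstF64 then reversed against ELAV, to 0.18 after quantile normalization; the cause was not tested. With all 24 arrays the time change had 2 calls in ELAV and 1 in per01 neurons, and with values under 5 raised to 5 it had 1 in per01 neurons. Members called for the time change in small PDF neurons numbered 2 after quantile normalization, with raised values, with all 24 arrays and with a variance trend.

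Leaving out 1 array gave 84 to 235 calls for the time change in small PDF neurons (members 1 to 2), the lowest without small PDF ZT0 replicate 2, and 0 to 5 in ELAV neurons. Small PDF against ELAV gave 1727 to 2221 (members 6 to 11, the 6 without small PDF ZT0 replicate 2), and per01 against ELAV 2675 to 3308 (members 6 to 9). Same-numbered arrays had correlations of deviations from -0.11 to 0.14, in 23 pairs. The value of 0.14 belongs to both pairs of per01 ZT0 and ZT12 (2 arrays each, so 1 independent value), and no other pair was over 0.1. The numbers were not used to pair the arrays. With the replicate block the counts were 201, 0, 0, 2013 and 3147 for the 5 comparisons, and 1, 0, 0, 9 and 10 among members. Of 410 values for single genes, 351 kept direction and call, 58 lost the call and 1 reversed. Calls lost most often were CG1523 and Trs33 in per01 large PDF against ELAV, CG8858 in small PDF against ELAV, and CG42674 for the difference of time changes. In per01 large PDF against ELAV, Tsp42En lost its call without replicate 1 of per01 at either time, and CstF64 and bnb without replicate 2 at either time. Low values near 5 and 2 arrays per group limit what can be told apart.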

Other observations

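On the per01 large PDF arrays, 6 of the 21 members (28.6%) were higher by more than 1 in replicate 2 than in replicate 1 at both times, against 2.97% of the 7685 probe sets tested, a count made after the values were seen. These were Tsp42Eo (3.03 at ZT0 and 4.06 at ZT12), bnb (2.53 and 3.90), Tsp42En (2.07 and 2.33), Prp40 (1.78 and 2.43), blow (1.5 and 1.83) and CG1523 (1.48 and 1.46). Without a size limit replicate 2 was higher at both times in 11 of the 21 members (52.4%), against 33.5% of the 7685. Whether same-numbered arrays are linked across times is not known, and the counts rest on 2 arrays per time, so they are a description only. On the wild-type ZT6 arrays the difference (replicate 2 minus replicate 1) was -0.97 for Tsp42En, -1.79 for Tsp42Eo and -0.81 for bnb, but -0.13 for Prp40, -0.32 for blow and -0.24 for CG1523, these last under the median size of 0.41 over the members. ZT0 replicate 2 of the wild-type large PDF neurons, the array with the Gs2 and Hml signals, held other genes of the tetraspanin cluster that were low elsewhere in these neurons: Tsp42Ea at 9.62 and Tsp42Ei at 7.59. Tsp42En and Tsp42Eo on that array, at 7.11 and 8.96, lay within the range of the other ZT0 arrays.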
